A study of Mus musculus with 4 samples.

Results

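The proneural factors of the retina were followed across RNA sequencing libraries from single retinas of mouse embryos at embryonic day 19. The set holds 9 genes, Atoh7, Neurog2, Neurod1, Neurod4, Olig2, Insm1, Bhlhe22, Ptf1a and Neurod2. They were listed by name, with earlier results of these data known. All 9 were found among the 18471 genes of the count table. There were 2 groups of 2 libraries. Wild-type embryos were compared with embryos labelled Foxn3KO, which carry Foxn3 -/- alleles lacking exon 3 of the forkhead gene Foxn3 (allele C57BL/6NJ-Foxn3em1(IMPC)Bay/Mmnc). The labels name no Cre driver that would limit the deletion to the retina or to a cell type. Each library was made from 500 ng of RNA from the retina of an individual genotyped embryo, so the spread between libraries is one between embryos. The series concerns a transcriptional network that includes Foxn3 and governs primary cilia. The comparison below asks whether the transcripts of the factors that start retinal neurogenesis differ between the genotypes.

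Proneural factors are switched on as progenitors commit to become neurons. Proneural proteins with a basic helix-loop-helix (bHLH) fold pair with broadly expressed E proteins and bind short E-box motifs in DNA. Id proteins lack the DNA-binding part of the fold and hold E proteins in inactive pairs. Notch signalling acts against the proneural genes through the Hes and Hey repressors, and the proneural factors in turn switch on Notch ligands such as Dll1 and Dll3 in the same precursors. In the retina the members serve different fates: Atoh7 is needed for ganglion cells, Ptf1a for amacrine and horizontal cells, Neurod1 for photoreceptors and some amacrine cells, Neurod4 and Bhlhe22 for bipolar and amacrine cells.

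Total counts ranged from 22543531 to 29360129 per library. Values are given as CPM, counts relative to the library total after TMM scaling, which assumes most genes are unchanged. The labelled tissue was checked by its defining genes, which were all present: the eye-field genes Pax6 (844 to 865 CPM) and Rax (386 to 410 CPM) and the photoreceptor regulator Crx (234 to 249 CPM), as ranges over the libraries. The targeted gene was not lower in the libraries labelled Foxn3KO: Foxn3 stood at 97.6 and 99.8 CPM in wild-type and at 144 and 144 CPM in Foxn3KO. Counts per gene do not resolve exon 3, and each direction below rests on the labels. Wild-type replicate 1 stood apart in sex-linked genes, with 3350 CPM of Xist against at most 0.652 CPM in the others. It also stood apart in lens genes: the summed level of 8 tested lens markers was 4.23 CPM there, 64.9 CPM in wild-type replicate 2 and 210 and 206 CPM in the Foxn3KO libraries. The part of embryo sex and of lens RNA in the results below was not tested, and values without wild-type replicate 1 stand beside the 4 calls among the members.

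Levels of different genes were compared per transcript length, as the FPKM values (fragments scaled by transcript length and library size) that the authors deposited. Neurod1, a bHLH factor of photoreceptor and amacrine precursors, had the highest level, at 128 ± 2.70 FPKM in wild-type and 132 ± 1.63 in Foxn3KO (SD, n = 2 each). Neurog2, which marks progenitors about to leave the cell cycle, followed with 97.7 ± 1.21 and 100.3 ± 1.23 FPKM. Atoh7 had 95.6 ± 5.52 and 98.0 ± 3.77 FPKM, and its libraries overlapped with those of Neurog2 in both groups. Neurod4 had 71.6 ± 2.94 FPKM in wild-type and 64.4 ± 1.99 in Foxn3KO. Insm1, a zinc finger factor of late dividing precursors and the only member without a bHLH fold, had 56.9 ± 3.57 and 72.3 ± 0.0622 FPKM. It lay below Neurod4 in both wild-type libraries and above it in both Foxn3KO libraries.

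A lower tier followed. Olig2, found in progenitors near their last division, had 20.2 ± 0.439 FPKM in wild-type and 17.2 ± 0.549 in Foxn3KO. Bhlhe22, a bHLH repressor of amacrine and bipolar subtypes, had 18.1 ± 0.292 and 20.95 ± 0.767 FPKM, so these neighbours also changed places. Ptf1a stood at 16.4 ± 0.0667 and 16.7 ± 0.380 FPKM. Neurod2, a late factor of a few neuron types, was lowest by far, with 1.34 ± 0.234 and 1.05 ± 0.0550 FPKM. In the wild-type libraries no neighbours in this order overlapped apart from Neurog2 and Atoh7. In Foxn3KO, Olig2 (16.8 and 17.6 FPKM) also overlapped with Ptf1a (16.99 and 16.4 FPKM).

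**Figure D1:**
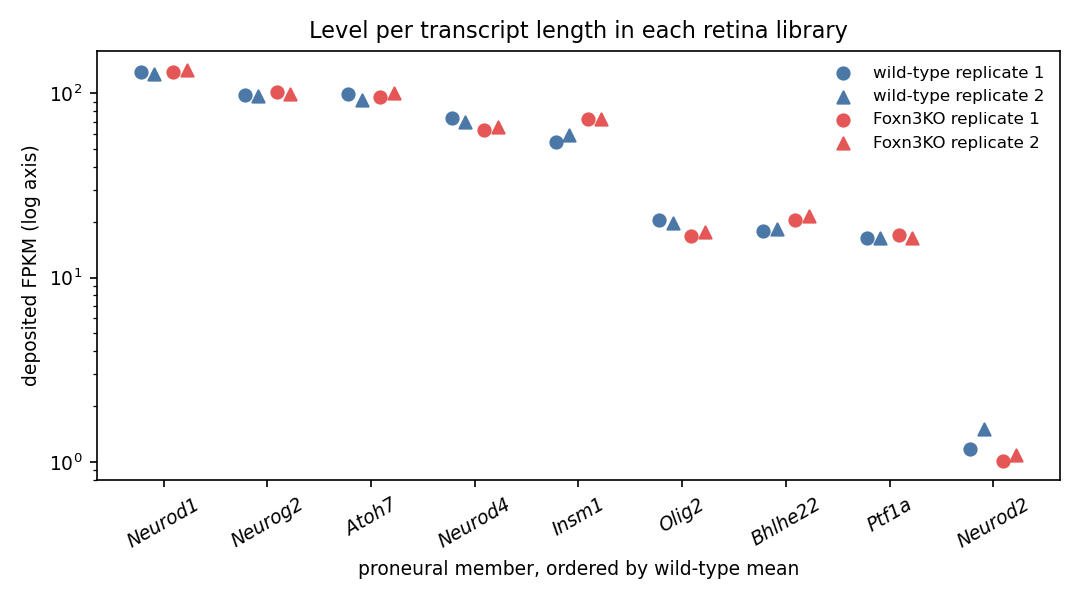
Deposited FPKM (log axis) of the 9 proneural members in each of the 4 retina libraries, ordered by the wild-type mean; blue marks wild-type and red Foxn3KO, circles replicate 1 and triangles replicate 2. Neurod1 is highest at 127 to 133 FPKM, Neurod2 lowest at 1.01 to 1.51 FPKM, and Insm1 and Neurod4 exchange places between the genotypes.

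Between the genotypes the set split. Insm1 and Bhlhe22 rose, Neurod4 and Olig2 fell, and Neurod1, Neurog2, Atoh7, Ptf1a and Neurod2 did not pass the test. All 9 members passed the filter on low counts, and 4 were called in edgeR's quasi-likelihood test, at a Benjamini-Hochberg adjusted p below 0.05 over 17300 tested genes. The background share called by that rule was 21.9%, with 12.3% of genes called higher and 9.66% lower. Among tested genes that averaged 10 CPM or more, a level that all members but Neurod2 reach, it was 28.3%. None of the 4 calls reached 1.5-fold, a size that 5.83% of tested genes reached with a call. The groups did not overlap for 7 of the 9 members, beside 60.4% of all tested genes. The median log2 fold change of the members was 0.03, against -0.0047 for all tested genes. Their median absolute value was 0.16, against 0.15 for all tested genes and 0.11 for those averaging 10 CPM or more. In bulk retina, fewer precursor cells and less RNA per precursor cannot be told apart.

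**Figure D2:**
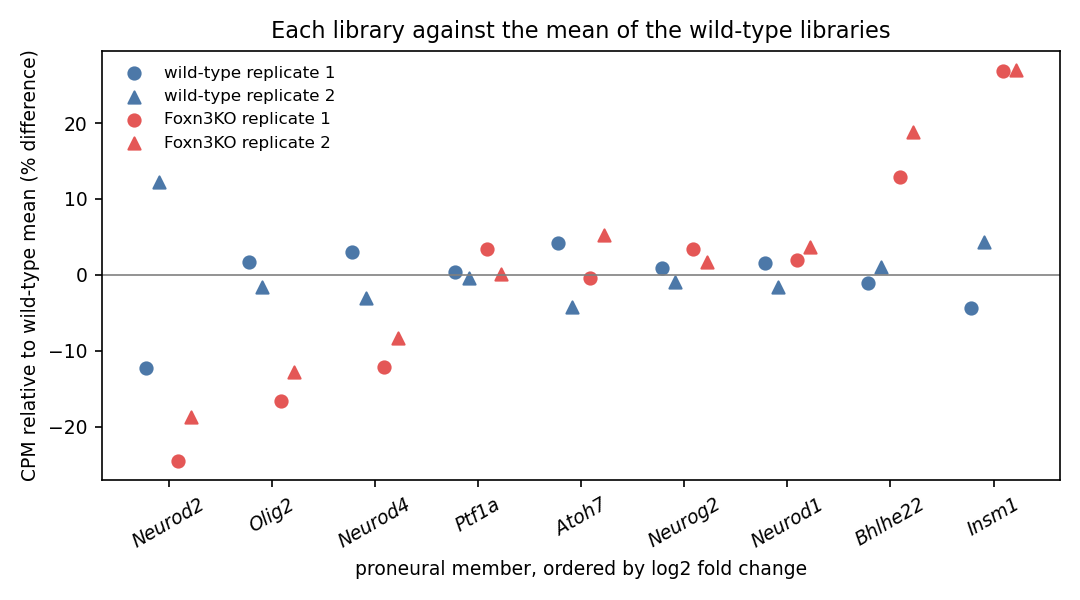
CPM of each proneural member in each library as percent difference from the mean of the 2 wild-type libraries, ordered by log2 fold change; blue marks wild-type and red Foxn3KO, circles replicate 1 and triangles replicate 2. Both Foxn3KO libraries lie above both wild-type libraries for Insm1 and Bhlhe22 and below both for Olig2, Neurod4 and Neurod2, while Atoh7 and Ptf1a overlap.

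Insm1 (ENSMUSG00000068154, chromosome 2, a single exon), whose product favours terminal, neuron-producing divisions, had 4199 and 5019 counts in the wild-type libraries and 6537 and 5033 in the Foxn3KO libraries. Scaled, this was 169 and 185 CPM against 224 and 225 CPM. The Foxn3KO libraries were nearly equal and both above wild-type, and the wild-type libraries differed by 0.13 on the log2 scale. The log2 fold change was 0.34 (SE 0.047, a rise of 26.9%, edgeR quasi-likelihood adjusted p = 3.53e-05). Insm1 stayed called whichever library was left out, with log2 fold changes from 0.28 without wild-type replicate 1 to 0.41 without wild-type replicate 2.

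Bhlhe22 (ENSMUSG00000025128, chromosome 3, a single exon) had 1488 and 1665 counts in wild-type and 1993 and 1614 in Foxn3KO. This was 60.0 and 61.3 CPM against 68.4 and 72.1 CPM, with no overlap. The log2 fold change was 0.21 (SE 0.054, a rise of 15.8%, edgeR quasi-likelihood adjusted p = 0.00903). It was 0.20 without wild-type replicate 1. The call rested on Foxn3KO replicate 2: without it the log2 fold change was 0.18 and the edgeR adjusted p = 0.167.

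Neurod4 (ENSMUSG00000048015, chromosome 10), a bHLH factor of bipolar and amacrine precursors, had 6143 and 6339 counts in wild-type and 6151 and 4941 in Foxn3KO. After scaling it stood at 248 and 233 CPM in wild-type and 211 and 221 CPM in Foxn3KO, with no overlap. The log2 fold change was -0.16 (SE 0.045, a change of -10.2%, edgeR quasi-likelihood adjusted p = 0.01996). It fell by 0.11 on the log2 scale without wild-type replicate 1. The call was lost without Foxn3KO replicate 1 (edgeR adjusted p = 0.329) and without Foxn3KO replicate 2 (edgeR adjusted p = 0.0916).

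Olig2 (ENSMUSG00000039830, chromosome 16), better known from the oligodendrocyte lineage, had 1290 and 1368 counts in wild-type and 1243 and 1000 in Foxn3KO. This was 52.0 and 50.4 CPM against 42.7 and 44.7 CPM, so both Foxn3KO libraries lay below both wild-type libraries. The log2 fold change was -0.23 (SE 0.059, a change of -14.7%, edgeR quasi-likelihood adjusted p = 0.00966), and it fell by 0.21 on the log2 scale without wild-type replicate 1. The call was lost without Foxn3KO replicate 1 (edgeR adjusted p = 0.155) and in DESeq2 (adjusted p = 0.0519). Oligodendrocyte lineage markers were scarce in every library: Sox10 had 0.402 to 1.40 CPM and Olig1 0.268 to 0.927 CPM. Of 7 tested markers of that lineage 1 was called, Mbp, which fell by 0.28 on the log2 scale and lost its call without wild-type replicate 2 (edgeR adjusted p = 0.0879). Over all tested genes, the share called was 21.9%. The summed level of the 7 markers was 64.6 and 70.3 CPM in wild-type and 62.3 and 63.4 CPM in Foxn3KO. The part of that lineage in the Olig2 result was not tested.

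The 3 members with the highest FPKM differed little. Neurod1 (ENSMUSG00000034701, chromosome 2) had 358 and 346 CPM in wild-type and 359 and 365 CPM in Foxn3KO, a log2 fold change of 0.04 (SE 0.041, edgeR adjusted p = 0.538). Neurog2 (ENSMUSG00000027967, chromosome 3) had 221 and 216 CPM against 226 and 222 CPM, a log2 fold change of 0.04 (SE 0.042, edgeR adjusted p = 0.595). For both, the Foxn3KO libraries lay just above the wild-type libraries, by about as much as replicates differed. Atoh7 (ENSMUSG00000036816, chromosome 10, a single exon) had 163 and 150 CPM in wild-type and 156 and 164 CPM in Foxn3KO. Its groups overlapped, its log2 fold change was 0.03 (SE 0.050, edgeR adjusted p = 0.681), and the sign turned without wild-type replicate 2 (-0.03).

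Ptf1a (ENSMUSG00000026735, chromosome 2) had 24.9 and 24.7 CPM in wild-type and 25.7 and 24.9 CPM in Foxn3KO, which overlapped. The log2 fold change was 0.03 (SE 0.074, edgeR adjusted p = 0.842). Neurod2 (ENSMUSG00000038255, chromosome 11) rested on 92 and 129 counts in wild-type and 93 and 77 in Foxn3KO. This was 3.71 and 4.75 CPM against 3.19 and 3.44 CPM. Its log2 fold change of -0.36 (SE 0.191) was the largest of the set in size but did not pass (edgeR adjusted p = 0.202), and it ranged from -0.52 without wild-type replicate 1 to -0.17 without wild-type replicate 2. Small differences in these 5 members may have gone undetected. In simulated libraries of this design, 42% of 100 genes made to differ by 0.25 on the log2 scale were called. Those genes all averaged more than 10 CPM, a level that Neurod2 does not reach. Far fewer genes were changed there than were called here, which makes the adjusted threshold stricter, so the share cannot be carried over to these data. According to the mouse annotation (GENCODE vM21), Neurod1 overlaps Cerkl on the same strand and a non-coding gene on the other, and Ptf1a overlaps an antisense gene. How the authors' counting treated such reads was not stated. Cerkl itself had 7.40 to 9.75 CPM.

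**Figure D3:**
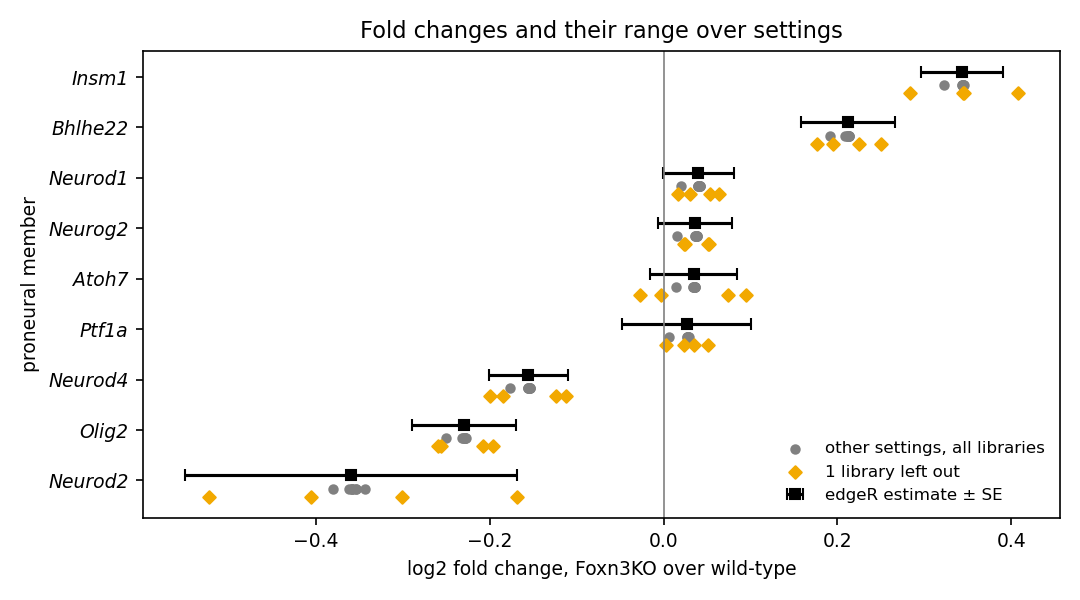
Log2 fold change (Foxn3KO over wild-type) of each proneural member: black squares with bars are the edgeR estimate and its SE, grey points the other settings with all libraries, and orange diamonds the fits with 1 library left out. Insm1, Bhlhe22, Neurod4, Olig2 and Neurod2 keep their sign in every fit shown, while Atoh7 spans -0.03 to 0.10.

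Ratios within a library do not depend on how libraries are scaled. Counts of Insm1 were 47.4% and 53.3% of those of Neurod1 in wild-type and 62.6% and 61.6% in Foxn3KO. Counts of Neurod4 were 69.3% and 67.3% of those of Neurod1 in wild-type and 58.9% and 60.4% in Foxn3KO. The Insm1 ratio was higher and the Neurod4 ratio lower in both Foxn3KO libraries, while the summed level of the 9 members was 1299 and 1272 CPM in wild-type and 1316 and 1342 CPM in Foxn3KO. Olig2 stood at 14.5% and 14.5% of Neurod1 counts in wild-type and 11.9% and 12.2% in Foxn3KO. For Bhlhe22 the ratio was 16.8% and 17.7% against 19.1% and 19.7%. Atoh7, Neurog2 and Ptf1a kept overlapping ratios, with Atoh7 at 43.2% to 45.5%, Neurog2 at 60.8% to 62.96% and Ptf1a at 6.81% to 7.16% over the libraries. The ratio of Neurod2, which was not called, did not overlap, at 1.04% and 1.37% in wild-type and 0.890% and 0.942% in Foxn3KO.

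Proneural proteins act through E-boxes, written CANNTG, and such letters were sought in front of the members' own starts. The 250 bases before the annotated start were searched for 7 members (RefSeq, build GRCm38.p6), Atoh7, Neurog2, Neurod1, Neurod4, Olig2, Ptf1a and Neurod2, in 8 windows because Neurod4 has 2 starts. Insm1 and Bhlhe22 were not searched. Both strands were read, which is the same for this palindromic pattern, and overlapping matches were kept. Atoh7 and Neurod2 had 3 matches each, Neurod1 had 1, and the windows of Neurog2, Neurod4, Olig2 and Ptf1a had 0. At least 1 match was thus held by 3 of the 8 member windows. Of 32851 promoter windows of this length, 66.2% held at least 1 match and 12.2% at least 3. Atoh7, which did not pass the test between the genotypes and holds 3 matches, is shown beside Neurod4 and Olig2, the members that fell. They lie at chr10:63099535-63099784 (plus strand), chr10:130280255-130280504 (minus strand) and chr16:91225300-91225549 (plus strand), and capitals mark CANNTG.
Atoh7: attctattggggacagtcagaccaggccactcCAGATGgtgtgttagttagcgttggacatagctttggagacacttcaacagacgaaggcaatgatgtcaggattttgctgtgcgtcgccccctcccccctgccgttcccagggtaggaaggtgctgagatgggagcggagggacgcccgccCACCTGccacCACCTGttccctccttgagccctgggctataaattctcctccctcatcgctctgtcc
Neurod4: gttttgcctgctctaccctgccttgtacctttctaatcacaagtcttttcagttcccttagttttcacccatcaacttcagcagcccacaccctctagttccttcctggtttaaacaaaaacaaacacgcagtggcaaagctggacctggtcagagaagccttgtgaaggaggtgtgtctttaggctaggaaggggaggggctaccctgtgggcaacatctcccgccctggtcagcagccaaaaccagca
Olig2: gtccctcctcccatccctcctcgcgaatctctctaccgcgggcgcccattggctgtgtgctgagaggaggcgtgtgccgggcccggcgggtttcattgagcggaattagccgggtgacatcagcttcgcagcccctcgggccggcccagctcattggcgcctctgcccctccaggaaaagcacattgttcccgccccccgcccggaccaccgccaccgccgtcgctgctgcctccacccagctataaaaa
In Atoh7 the core CACCTG occurs at 67 and at 57 bases before the start, with CAGATG farther out at 218. The letters GACGC, one of the sequences forkhead proteins of the FOXN group bind, occurred on either strand in the windows of Atoh7, Neurod1, Ptf1a and Neurod2 and in 22.6% of all windows. GTAAACA, the classic forkhead core, occurred in 0 of the 8 windows and in 3.17% of all. Such matches describe letters only.

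E proteins, the pairing partners, showed no call. Tcf12 had 217 to 227 CPM in wild-type and 212 to 216 CPM in Foxn3KO, Tcf3 stayed between 196 and 205 CPM over the libraries, and Tcf4 had 230 and 234 CPM against 243 and 248 CPM (log2 fold change 0.08, edgeR adjusted p = 0.169). Among the Id inhibitors, Id4 rose most. It had 78.9 and 80.9 CPM in wild-type and 153 and 154 CPM in Foxn3KO, a log2 fold change of 0.94 (SE 0.047, edgeR adjusted p = 4.56e-11) that stayed called under each setting. Id1 rose from 67.3 and 66.6 CPM to 74.8 and 80.1 CPM (log2 fold change 0.21, edgeR adjusted p = 0.00915), a call lost without Foxn3KO replicate 2 (edgeR adjusted p = 0.204). Id2 (-0.07) and Id3 (0.0087, with a sign that turned under total count scaling) did not pass. In all, 2 of 7 genes of this list were called, both higher, with a median of 0.0087. The share called was 28.6%, beside 21.9% of all tested genes and 28.3% of those averaging 10 CPM or more.

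The Hes and Hey repressors went both ways, with 1 of 7 called higher and 2 lower and a median log2 fold change of -0.06. The share called was 42.9%, beside 21.9% of all tested genes and 28.3% of those averaging 10 CPM or more. Hes1, the Notch effector of progenitors, fell from 137 and 134 CPM to 118 and 117 CPM. Its log2 fold change was -0.21 (SE 0.045, edgeR adjusted p = 0.00247), and the call was lost without Foxn3KO replicate 2 (edgeR adjusted p = 0.0608). Heyl fell from 97.0 and 97.9 CPM to 83.7 and 85.7 CPM (log2 fold change -0.20, edgeR adjusted p = 0.00578), and its call was lost without Foxn3KO replicate 1 (0.121) or replicate 2 (0.0517). Hey1 rose from 37.7 and 34.3 CPM to 43.3 and 40.8 CPM (0.23, edgeR adjusted p = 0.0228). It lost the call in DESeq2 (adjusted p = 0.0948), without wild-type replicate 2 (0.0741) and without Foxn3KO replicate 1 (0.237). Hes5 (-0.06), Hes6 (-0.0050), Hey2 (0.06) and the near-silent Hes7 (-0.56, at most 0.552 CPM) did not pass. The most abundant, Hes6, which promotes neurogenesis, had 515 to 525 CPM over the libraries.

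**Figure D4:**
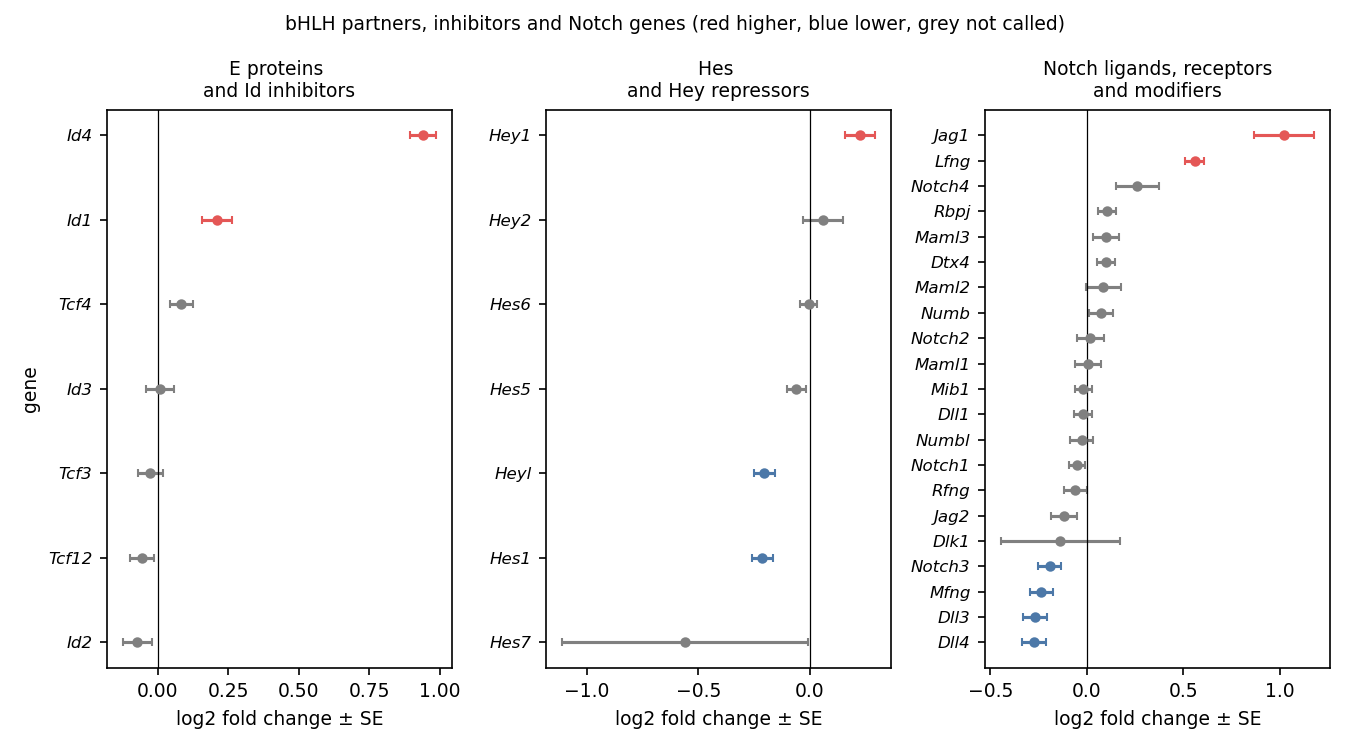
Log2 fold change with SE of bHLH partners and inhibitors, of Hes and Hey repressors, and of Notch pathway genes; each panel has its own axis range, and red marks called higher, blue called lower and grey not called in Foxn3KO. Id4 at 0.94, Jag1 at 1.02 and Lfng at 0.56 lie farthest to the right among the called genes.

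Of 21 Notch ligands, receptors and modifiers 2 were called higher and 4 lower, with a median log2 fold change of -0.02. The share called was 28.6%, beside 21.9% of all tested genes and 28.3% of those averaging 10 CPM or more. Lfng, an enzyme that modifies Notch receptors, rose from 108 and 105 CPM to 161 and 152 CPM (log2 fold change 0.56, SE 0.048, edgeR adjusted p = 8.33e-08). Jag1, a ligand at low level, rose from 3.71 and 3.53 CPM to 7.07 and 7.68 CPM (1.02, SE 0.155, edgeR adjusted p = 9.94e-05). The ligand Dll4, carried by newly born precursors, fell from 62.2 and 62.8 CPM to 48.7 and 54.9 CPM (-0.27, edgeR adjusted p = 0.00408), a call lost without Foxn3KO replicate 1 (0.159). Dll3 fell from 64.6 and 70.2 CPM to 58.5 and 53.4 CPM (-0.27, edgeR adjusted p = 0.00422), a call lost without Foxn3KO replicate 2 (0.103). Dll1 did not pass, with 124 to 129 CPM in wild-type and 124 to 125 CPM in Foxn3KO.

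Other neural bHLH genes and the Insm1 relative Insm2 formed a list of 18, of which 11 were tested. Of these, 2 were called higher and 1 lower, with a median of 0.0087. The share called was 27.3%, beside 21.9% of all tested genes. Insm2 had 12.02 and 12.99 CPM in wild-type and 15.3 and 15.9 CPM in Foxn3KO (0.32, edgeR adjusted p = 0.0275), but lost its call in DESeq2 (adjusted p = 0.142), without wild-type replicate 1 (0.0934) and without either Foxn3KO library (0.0907 and 0.165). Nhlh1, a bHLH factor of newborn neurons, fell from 4.72 and 5.67 CPM to 3.02 and 3.30 CPM (-0.72, SE 0.181, edgeR adjusted p = 0.00759), and did not pass without Foxn3KO replicate 1 (0.0507). Its relative Nhlh2 had 88.3 to 95.7 CPM with overlapping groups. Tal1, a blood and vessel factor, had 3 and 12 counts in wild-type and 30 and 24 in Foxn3KO (edgeR adjusted p = 0.0122), a call lost without wild-type replicate 1 (0.0773). Bhlha15 (-0.64), Bhlhe40 (-0.14), Bhlhe41 (0.0087), Neurod6 (-0.41), Neurog1 (0.24) and Olig1 (-1.02) did not pass. Bhlhe40 was the most abundant of these, at 7.90 to 9.44 CPM.

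Of 28 genes of the neurogenic precursor state, 8 were called higher and 7 lower, with a median log2 fold change of -0.03. This was 53.6%, beside 21.9% of all tested genes and 28.3% of those averaging 10 CPM or more. The list was chosen with earlier results of these data known. Mybl1 fell from 199 and 185 CPM to 135 and 137 CPM (-0.50, SE 0.047, edgeR adjusted p = 3.31e-07). Rassf4 fell from 114 and 116 CPM to 88.4 and 93.4 CPM (-0.34, edgeR adjusted p = 6.15e-05). The neuronal tubulin gene Tubb3 rose from 597 and 644 CPM to 771 and 771 CPM (0.31, edgeR adjusted p = 3.42e-05), and Sox11, a factor of young neurons, from 361 and 359 CPM to 437 and 437 CPM (0.28, edgeR adjusted p = 4.77e-05). These 4 stayed called whichever library was left out.

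Genes downstream of the members were counted by fate. Of 20 ganglion cell genes linked to Atoh7, 3 were called higher and 1 lower, with a median of 0.08. The share called was 20%, beside 21.9% of all tested genes and 28.3% of those averaging 10 CPM or more. The Atoh7 targets Pou4f1 (0.10, edgeR adjusted p = 0.197) and Pou4f2 (0.09, edgeR adjusted p = 0.367) did not pass. Gap43 (0.15), Ebf3 (0.19) and Stmn2 (0.13) were called higher and Isl1 lower (-0.23), each with an edgeR adjusted p between 0.00245 and 0.0291. Each of these calls was lost when Foxn3KO replicate 1 (Isl1, Gap43, Stmn2) or replicate 2 (Gap43, Ebf3, Stmn2) was left out, with edgeR adjusted p from 0.0592 to 0.369. Ebf3 was also lost without wild-type replicate 1 (0.0755) and moved from 0.19 to 0.11.

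Of 20 amacrine and horizontal genes linked to Ptf1a, 2 were called higher and 6 lower, with a median of -0.04. The share called was 40%, beside 21.9% of all tested genes and 28.3% of those averaging 10 CPM or more. Prdm13, a direct Ptf1a target, did not pass, with 78.3 to 81.5 CPM over the libraries (edgeR adjusted p = 0.594). Septin4 fell by 0.41 (edgeR adjusted p = 0.000152) and Gad1, which makes the transmitter GABA, by 0.27 on the log2 scale (adjusted p in edgeR = 0.00465, and 0.0533 without Foxn3KO replicate 1). Onecut1, a horizontal cell factor, fell from 11.98 and 10.7 CPM to 6.83 and 9.24 CPM (log2 fold change -0.51, edgeR adjusted p = 0.0131). Without Foxn3KO replicate 1 its change was -0.30 and not called (0.248). Calb2, a calcium-binding protein of amacrine and ganglion cells, rose by 0.29 (edgeR adjusted p = 0.000303).

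Photoreceptor genes linked to Neurod1 had 6 of 17 members called higher and 1 lower, with a median of 0.11. The share called was 41.2%, beside 21.9% of all tested genes and 28.3% of those averaging 10 CPM or more. The list was chosen with earlier results of these data known. Neurod1, Crx (0.06, edgeR adjusted p = 0.354) and Otx2 (-0.02, edgeR adjusted p = 0.750) did not pass. The cone transducin gene Gngt2 rose from 118 and 111 CPM to 163 and 152 CPM (log2 fold change 0.46, edgeR adjusted p = 2.25e-06), and the rod factor Nrl from 77.8 and 80.9 CPM to 95.2 and 97.2 CPM (0.28, edgeR adjusted p = 0.000549). Pde6h (0.60, edgeR adjusted p = 0.00029) and Rcvrn (0.91, edgeR adjusted p = 0.00275) also rose, from 11.3 and 10.7 CPM and from 2.18 and 2.28 CPM. These 4 calls held whichever library was left out. Of 12 tested bipolar genes linked to Bhlhe22 and Neurod4, 2 were called higher and 2 lower, with a median of -0.12. The share called was 33.3%, beside the same background. Prdm8, a partner of Bhlhe22, rose from 31.7 and 36.1 CPM to 45.4 and 41.1 CPM (0.35, edgeR adjusted p = 0.00223) and stayed called whichever library was left out. Lhx4 fell by 0.27 (edgeR adjusted p = 0.0192, and 0.285 without Foxn3KO replicate 2), and Trpm1 rose by 0.49 (adjusted p in edgeR = 0.0466, and 0.412 with a change of 0.17 without wild-type replicate 1).

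Progenitor markers, which label the cells that give rise to the precursors, had 5 of 16 called higher and 3 lower, with a median of -0.0095. This was 50%, beside 21.9% of all tested genes and 28.3% of those averaging 10 CPM or more. The cell cycle gene Ccnd1 fell from 3545 and 3709 CPM to 3203 and 3184 CPM (log2 fold change -0.18, edgeR adjusted p = 0.00376). Fgf15 fell by 0.21 (edgeR adjusted p = 0.000873) and Fzd5 by 0.17 on the log2 scale (adjusted p in edgeR = 0.00539). Without Foxn3KO replicate 1 the edgeR adjusted p was 0.287 for Ccnd1, 0.0883 for Fgf15 and 0.148 for Fzd5, and without replicate 2 it was 0.338 for Ccnd1 and 0.113 for Fzd5. Hmga2, a gene of early progenitors, rose from 18.8 and 16.6 CPM to 24.3 and 28.8 CPM (0.58, edgeR adjusted p = 0.000201). Also called higher were Sox2 (0.17, edgeR adjusted p = 0.0103) and Six3 (0.18, edgeR adjusted p = 0.0223). So were Nes (0.17, edgeR adjusted p = 0.0250) and Six6 (0.14, edgeR adjusted p = 0.0316). Their calls under other settings were not followed. The proliferation marker Mki67 had 593 to 605 CPM with overlapping groups (edgeR adjusted p = 0.969).

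Markers of other cells were checked because some members are expressed outside the neural retina. Their counts stand beside 12.3% of all tested genes called higher and 9.66% called lower. All 8 tested lens markers were called higher. The most abundant in Foxn3KO, Cryaa, had 0.323 CPM in wild-type replicate 1, 28.6 in wild-type replicate 2 and 139 and 136 CPM in Foxn3KO. Cryaa did not pass in DESeq2 (adjusted p = 0.332). Among 7 optic nerve astrocyte markers Gfap fell from 31.98 and 28.05 CPM to 14.6 and 15.1 CPM (log2 fold change -1.02, edgeR adjusted p = 7.18e-08), while Cd44 (2.26, edgeR adjusted p = 8.59e-10) and Aldh1l1 (0.88, edgeR adjusted p = 0.00366) rose. Their summed level was 57.4 and 53.7 CPM in wild-type and 54.1 and 56.5 CPM in Foxn3KO, and Pax2, which defines these cells, had 4.19 to 6.16 CPM. Of 8 pigment epithelium markers 3 were called lower, with Pmel at 27.2 and 41.2 CPM in wild-type and 18.1 and 20.3 CPM in Foxn3KO. Without wild-type replicate 2 the log2 fold change of Pmel moved from -0.84 to -0.51. Of 7 forebrain markers Slc17a7, which retinal neurons also express, was called (0.61, edgeR adjusted p = 0.00014). Of 10 vessel and mesenchyme markers 3 were called higher, and of 9 microglia and blood markers 0 were called. The part of these cells in the members' results was not tested.

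The genes most like Insm1 in pattern were sought among 10844 tested genes averaging 10 CPM or more, by the smallest Euclidean distance of centred log2 CPM over the 4 libraries. They were Dmpk (distance 0.019), Arf3 (0.021) and Fam98b (0.022). Arf3, at a similar level, had 179 and 193 CPM in wild-type and 239 and 239 CPM in Foxn3KO. For Bhlhe22 the nearest were Gpatch2 (0.014), Ung (0.015) and Zbtb8a (0.017). With 4 libraries and many candidates such distances only describe.

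The authors' deposited table gives a comparison of the genotypes from the same libraries. Its adjusted p for Olig2, Bhlhe22, Neurod4 and Neurod2 equals the largest from the fits here with all libraries, which for Olig2 is DESeq2. It is therefore no separate line of evidence. The deposited log2 fold change of Neurod2 is -0.18, against -0.36 in edgeR, and how it was computed is not stated. In the authors' deposited table, the log2 fold change of Insm1 is 0.34 (adjusted p = 9.88e-08) and that of Bhlhe22 0.20 (0.0378). For Neurod4 the authors' deposited table gives -0.15 with 0.0357. Olig2, at -0.21 with an adjusted p of 0.0519, does not pass 0.05 in the authors' deposited table, and the other 5 members have an adjusted p from 0.489 to 0.921 there.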

How the data were processed

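Groups and replicate numbers came from the sample labels. The authors deposited whole-number counts per gene and library without normalization, FPKM values per library, and their own comparison. That comparison holds a mean normalized signal per gene, log2 fold changes and p-values deposited by the authors. The submitters' processing notes name DESeq2 and the build mm39 without a role. The aligner, counter, annotation, use of strand and use of molecular identifiers are not given in the sources used here. The smallest sum over the libraries in the table was 16 counts.

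A repeated identifier was dropped, leaving 18471 genes. The filterByExpr filter on low counts left 17300. After TMM scaling, genotype was tested as the sole term by the two-sided quasi-likelihood test of edgeR 4.0.16 (edgeR 4 fit, R 4.3.3). Benjamini-Hochberg adjustment ran over all tested genes with a threshold of 0.05. The SE of a log2 fold change is its size over the root of F, and ± gives the SD. Depending on the library, 3 counts equal 0.103 to 0.134 CPM, a limit for counting error only. On simulated data with known changes, 100% of 100 genes made to differ by 1 on the log2 scale and 42% of 100 by 0.25 were called. In that simulation 17 unchanged genes were called among 17041. The changed genes were drawn only from those averaging more than 10 CPM, and they were far fewer than the genes called in the real data.

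The members and 17 further gene lists were chosen with earlier results of these data known. Named were all members, Foxn3, sex-linked genes, every tested gene of the neural bHLH, E protein and Id, and Hes and Hey lists, and in each other list the 4 called genes of smallest p that averaged 1 CPM or more. Further genes (Pax6, Rax, Crx, Otx2, Dll1, Pou4f1, Pou4f2, Prdm13, Mki67, Sox10, Pax2, Cerkl, Sox2, Six3, Nes, Six6) were chosen after their values were seen. A gene selected by these rules is left out of the text. Tried instead were DESeq2 1.42.0, limma-voom (limma 3.58.1), the earlier edgeR fit, RLE factors, scaling by total count, a filter of 10 counts in each library or none, a term for the replicate number, and each library left out in turn. With a library left out, the lone library of a group is assumed to vary like the other group. Promoter sequences came from RefSeq (GRCm38.p6), matched by symbol for 7 of 9 members. Since that build differs from mm39, no other coordinates are given. Figures were drawn with matplotlib 3.10.9.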

Additional observations from a re-analysis of the deposited data

How the results depend on the processing

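Insm1 stayed called in 13 of 13 fits, Bhlhe22 in 12, and Neurod4 and Olig2 in 11 each; the other 5 members were called in 0. The 4 member calls became 3 in DESeq2 and 2 to 4 when a library was left out, with 2 without either Foxn3KO library. The members' median log2 fold change was 0.0141 under total count scaling, by whose construction all values shift (the median of all genes moved from -0.0047 to -0.0251), and 0.0172 to 0.0524 with a library left out. DESeq2 called 2437 genes in place of 3795, and 44 in place of 75 of the genes in the fixed lists; the cause was not tested. Leaving out a library gave 2323 to 5067 calls over all genes and 44 to 91 in the fixed lists. Among the genes of the fixed lists that were named by rule, the calls of Insm2, Hey1, Ebf3, Onecut1, Lhx4, Trpm1, Bfsp2, Cryaa, Tyr, Pecam1 and Rgs5 were lost in DESeq2, that of Tyr in limma-voom, and those of Stmn2 and Trpm1 under total count scaling and in the earlier edgeR fit. Of all calls, 55.9% were higher, and 48.2% under total count scaling.

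The sign of some values that were not called reversed. Under total count scaling Bhlhe41 (-0.0118), Nhlh2 (-0.0106) and Id3 (-0.0118) did, and under limma-voom Bhlhe41 (-0.0155). With a library left out the ranges were -0.0266 to 0.0951 for Atoh7, -0.191 to 0.216 for Bhlhe41, -0.0188 to 0.0410 for Id3, -0.0078 to 0.139 for Hey2, -0.0484 to 0.0683 for Nhlh2, -0.0544 to 0.0041 for Tcf3, -0.0173 to 0.0088 for Hes6, -1.31 to 0.0455 for Hes7, -0.0265 to 13.98 for Ddx3y and -0.159 to 13.67 for Kdm5d.

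The labels state no pairing of libraries with the same replicate number, and the main test did not pair them. The correlation of replicate differences was -0.0083 over 17300 genes, which cannot show whether such libraries shared a litter or batch. With the replicate block 4222 genes and 4 members were called, 3792 of the genes shared with the 3795. Depth limits Neurod2 most, at 77 to 129 counts per library.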
